A study of Mus musculus with 12 samples.

Results

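The panel of 770 gene probes carries 6 genes that are grouped here around the SCF ubiquitin ligase, *Cul1*, *Rbx1*, *Skp1a*, *Skp2*, *Fbxw7* and *Vhl*. They were taken by name from the deposited table, all 6 are present, and all 6 lay above the lowest value that the table resolves in each of the 12 samples. The set was chosen by name with the fold changes of these comparisons already known, so it counts as selected on those measured values. The levels, fold changes and calls of the 6 genes are therefore a description, with no p value, and nothing is read from how many of them passed a threshold.

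An SCF ligase attaches ubiquitin to proteins that are to be degraded. The cullin Cul1 is its scaffold and holds the RING protein Rbx1, which recruits the ubiquitin-conjugating enzyme, at one end, and the adaptor Skp1 with an exchangeable F-box protein at the other. The F-box protein selects the substrate. Skp2 is known for the cell cycle inhibitor that *Cdkn1b* encodes, and Fbxw7 for the growth-promoting proteins cyclin E, Myc, Jun and Notch. Vhl, the von Hippel-Lindau protein, is no subunit of an SCF ligase. It is the substrate receptor of a cullin 2 ligase, which uses Rbx1 as well and is known for removing hypoxia-inducible factors, so that the name of the set covers 5 of its 6 genes.

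The 12 NanoString® samples are mouse hepatocellular carcinoma cells in 4 groups of 3 biological replicates. They are AKT Cre/NRAS cells with *Dusp4* siRNA, AKT Cre/NRAS cells with the control pool SCR, AKT/NRAS cells with *Dusp4* siRNA and AKT/NRAS cells with SCR. AKT/NRAS is a line from a murine tumour driven by myristoylated AKT, flanked by loxP sites, and mutant NRAS. AKT Cre/NRAS is its derivative after Cre recombinase had removed AKT, and both lines and all 4 groups keep the NRAS transgene. Each line is a single line, and every group was transfected with a pool of siRNA and transfected again before harvest. Differences between AKT Cre/NRAS and AKT/NRAS are thus differences between 2 lines, in which the loss of AKT and the history of the derivative cannot be told apart.

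Depth was 641790 to 1081646 recovered barcode counts per sample. *Dusp4*, the phosphatase gene that was silenced, was at 4023 ± 221 normalized counts after siRNA and 5556 ± 963 after SCR in AKT Cre/NRAS (SD, n = 3 each), and at 370.1 ± 19.7 after siRNA and 1228 ± 43.8 after SCR in AKT/NRAS (SD, n = 3 each). The 3 AKT Cre/NRAS SCR libraries stand apart from the others. Their log2 ratio of *Rpl19*, a ribosomal protein gene, to *Polr2a*, the gene of the large subunit of RNA polymerase II, was 5.48, 6.36 and 6.88, against 4.72 to 5.03 in AKT Cre/NRAS siRNA and 3.81 to 3.92 in the 6 AKT/NRAS libraries. The hepatocyte markers *Cebpa* and *Ghr* lay above the floor in all 12 samples and *Igf1* in none. The macrophage, endothelial and fibroblast markers *Csf1r*, *Kdr*, *Pdgfrb* and *Col3a1* were at the floor of 27.1 normalized counts, the lowest level resolved, in all 12, the fibroblast marker *Col1a1* lay between the floor and 47.5, and *Pdgfra* between 30.8 and 468, whereas the monocyte marker *Cd14* lay between 1323 and 1790.1.

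Values below are normalized counts, which are deposited values scaled to 15 reference genes. A higher count of one probe than of another was not read as more transcript. Ratios between members, given further below, were compared only between groups of samples. In such bulk samples fewer cells that express a gene and less RNA per cell cannot be told apart. The scaffold gene *Cul1* was at 1656, 1655 and 1700.1 normalized counts in AKT Cre/NRAS siRNA, at 1650.0, 1737 and 1574 in AKT Cre/NRAS SCR, at 1437, 1491 and 1331 in AKT/NRAS siRNA and at 1582, 1530.4 and 1403 in AKT/NRAS SCR. The 2 AKT Cre/NRAS groups overlapped each other, as did the 2 AKT/NRAS groups. After siRNA all 3 AKT Cre/NRAS samples were above all 3 AKT/NRAS samples, whereas after SCR the lines overlapped. The mean of the highest group was 1.18 times that of the lowest.

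*Rbx1*, the RING subunit, had the widest span of the 6, with 1.96-fold between its highest and its lowest group. Its level was 328, 367 and 392 normalized counts in AKT Cre/NRAS siRNA and 329.6, 389 and 466 in AKT Cre/NRAS SCR. In AKT/NRAS it was 670.1, 711 and 746 after siRNA and 609, 595 and 582 after SCR. Every AKT Cre/NRAS sample was below every AKT/NRAS sample, and within AKT/NRAS every siRNA sample was above every SCR sample. The siRNA and SCR groups of AKT Cre/NRAS overlapped.

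*Skp1a*, the adaptor gene, named *Skp1* in RefSeq, had 2951, 3095 and 3119.9 normalized counts in AKT Cre/NRAS siRNA, a group with an SD of 90.9. In AKT Cre/NRAS SCR it had 3406, 4440.0 and 5766, with an SD of 1183. AKT/NRAS cells had 4759, 4814 and 4651 after siRNA and 4950.4, 4954 and 4674 after SCR. The lowest 3 of the 12 samples were thus those of AKT Cre/NRAS siRNA, and the AKT Cre/NRAS SCR samples ran from near that level to above every AKT/NRAS sample.

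*Skp1a* and *Rbx1* were the members that were lower in AKT Cre/NRAS than in AKT/NRAS after siRNA by the widest margins, and their promoters are shown for that reason. The sequences are those of RefSeq on GRCm38.p6, 250 bases before and 50 from the annotated start on the plus strand, at chr11:52231745-52232044 for *Skp1a* and at chr15:81466066-81466365 for *Rbx1*. Capitals mark matches, on either strand, to any of 8 motifs searched.
Skp1a: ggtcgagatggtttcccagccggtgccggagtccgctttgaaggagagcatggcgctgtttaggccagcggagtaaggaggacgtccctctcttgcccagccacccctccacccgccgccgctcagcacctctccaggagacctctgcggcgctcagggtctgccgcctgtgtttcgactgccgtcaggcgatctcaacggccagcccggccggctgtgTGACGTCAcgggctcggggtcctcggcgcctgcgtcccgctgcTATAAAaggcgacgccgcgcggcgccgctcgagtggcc
Rbx1: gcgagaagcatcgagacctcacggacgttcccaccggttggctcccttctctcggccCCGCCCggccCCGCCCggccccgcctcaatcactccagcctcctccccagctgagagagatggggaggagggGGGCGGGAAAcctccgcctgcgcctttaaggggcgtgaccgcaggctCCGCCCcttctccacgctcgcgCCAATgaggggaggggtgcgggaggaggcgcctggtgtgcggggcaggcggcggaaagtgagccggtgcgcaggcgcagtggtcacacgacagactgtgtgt
The *Skp1a* window holds the cyclic AMP response element TGACGTCA at its bases 220 to 227, which is in 1.79% of the 32851 promoters of the same length, and the TATA box letters TATAAA at bases 263 to 268, past the annotated start, which are in 13.6%. The *Rbx1* window holds neither. It has 4 matches to the GC box GGGCGG, which 35.7% of promoters hold, 1 to the CCAAT box CCAAT, which 37.4% hold, and 1 to the E2F letters TTTCCCGC at bases 132 to 139, which 1.07% hold. This last match overlaps a GC box by 4 letters. No match to the ETS site CCGGAAGT (3.89% of promoters), the AP-1 site TGANTCA (7.81%) or the E-box CACGTG (7.15%) was found in either window. The windows share no motif of the 8, and a match describes the letters only.

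Both F-box genes were measured at far fewer barcodes than the core subunits. *Skp2* gave 39 to 86 recovered counts per sample, and the lowest of them, 39, has a 95% Poisson interval of 27.7 to 53.3, which covers counting error only. Its level was 63.6, 75.0 and 69.9 normalized counts in AKT Cre/NRAS siRNA, 70.6, 77.0 and 72.5 in AKT Cre/NRAS SCR, 64.0, 61.6 and 62.6 in AKT/NRAS siRNA and 52.2, 45.2 and 46.4 in AKT/NRAS SCR. The 3 AKT/NRAS SCR samples were the lowest of all 12, and no other pair of groups next to each other in level was free of overlap.

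*Fbxw7* (85 to 187 recovered counts) had 123, 120.4 and 116 normalized counts in AKT Cre/NRAS siRNA, 116, 76.1 and 100.3 in AKT Cre/NRAS SCR, 165, 157 and 160.4 in AKT/NRAS siRNA and 143, 140.3 and 137 in AKT/NRAS SCR. It was the only one of the 6 genes in which the 4 groups did not overlap anywhere, in the order AKT/NRAS siRNA, AKT/NRAS SCR, AKT Cre/NRAS siRNA, AKT Cre/NRAS SCR. The margin between the last 2 groups was narrow, since the lowest siRNA sample (116.4) and the highest SCR sample (115.8) came from 135 and 123 counts.

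*Vhl* (123 to 189 recovered counts) had 153, 121 and 144 normalized counts in AKT Cre/NRAS siRNA, 133, 152 and 142 in AKT Cre/NRAS SCR, 147, 162 and 150.2 in AKT/NRAS siRNA and 183, 153 and 153 in AKT/NRAS SCR. Neighbouring groups overlapped throughout, and the highest group was 1.17 times the lowest.

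**Figure D1:**
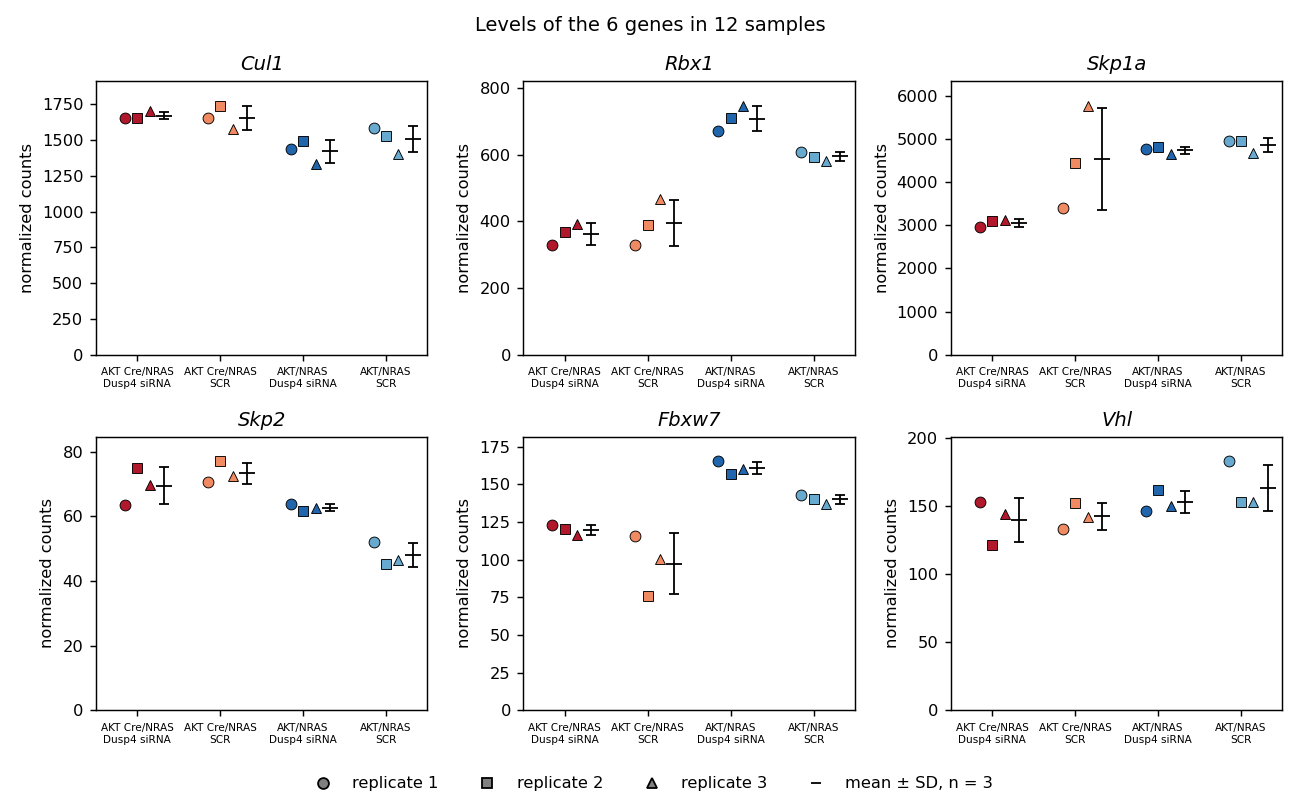
Normalized counts (vertical axes, from 0) of the 6 genes in each of the 12 samples, by group, with circles, squares and triangles for replicates 1, 2 and 3 and the mean ± SD beside each group of 3. *Rbx1* and *Fbxw7* are lower in every AKT Cre/NRAS sample than in any AKT/NRAS sample, *Skp2* is lowest in AKT/NRAS SCR, and the *Skp1a* samples of AKT Cre/NRAS SCR spread from 3406 to 5766.

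The comparison of *Dusp4* siRNA with SCR asks what silencing of the phosphatase did in each line. In AKT Cre/NRAS, *Skp1a* was the only member past the threshold, an adjusted p of 0.05 over all genes tested with limma, and it was lower after siRNA, with a log2 fold change of -0.54 (SE 0.16). Across the panel 45.9% of 503 genes passed, 40.6% higher and 5.37% lower, and the median log2 fold change was 0.23. *Skp1a* ranked 9 from the lowest. *Fbxw7* was above SCR in all 3 siRNA samples (0.32, SE 0.16) and did not pass, so that 2 of 6 members were free of overlap, beside 60% of all genes. *Cul1* (0.02, SE 0.08), *Rbx1* (-0.11, SE 0.14), *Skp2* (-0.08, SE 0.12) and *Vhl* (-0.03, SE 0.13) overlapped between the groups, and the median of the 6 was -0.06.

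The *Skp1a* samples of SCR were widely spread. Those 3, in the order 3406, 4440.0 and 5766, had *Rpl19* to *Polr2a* log2 ratios of 5.48, 6.36 and 6.88 and *Rpl19* levels of 45504, 58541 and 86725 normalized counts, against 38953, 41422 and 40238 in the siRNA samples, where *Skp1a* was 2951, 3095 and 3119.9. *Rpl19* is itself among the 15 reference genes to which the values were scaled, so its level enters the factor of each library. It ranked 5 from the lowest of the 503 fold changes. The part that this difference between libraries has in the result was not tested. Over 8 scalings the *Skp1a* fold change ran from -0.89 to -0.09 and passed in 3, and it no longer passed without siRNA replicate 1, 2 or 3 or without SCR replicate 2, with values of -0.73 to -0.35 over the 6 single omissions.

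**Figure D2:**
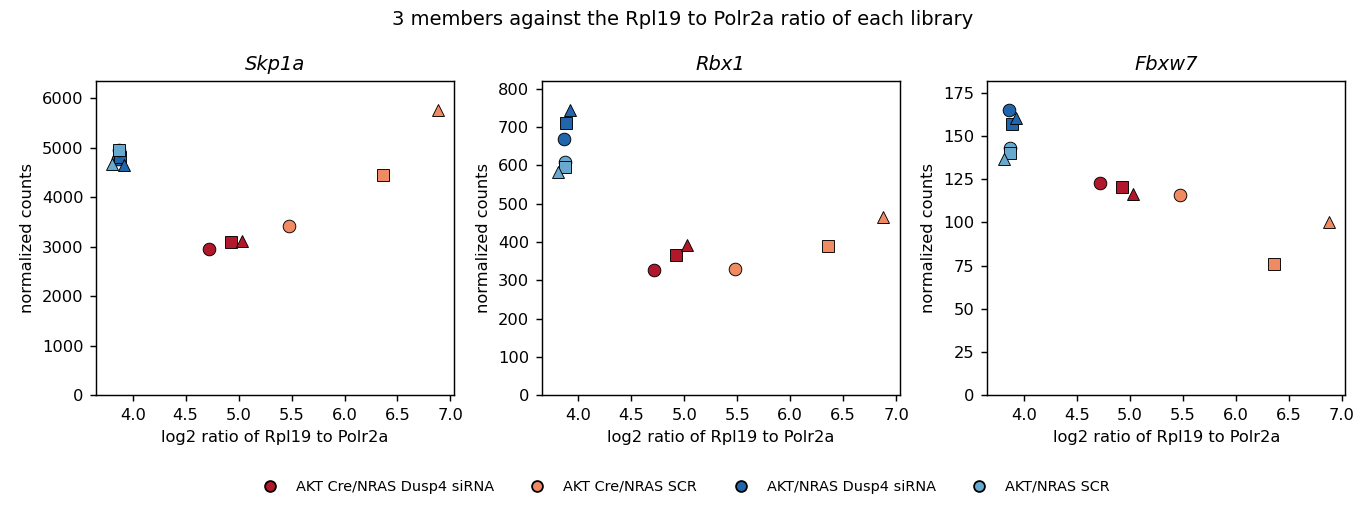
Normalized counts of *Skp1a*, *Rbx1* and *Fbxw7* (vertical axes, from 0) against the log2 ratio of *Rpl19* to *Polr2a* (horizontal axes) in the 12 libraries, coloured by group, with circles, squares and triangles for replicates 1, 2 and 3. In AKT Cre/NRAS SCR the library with the highest ratio (6.88) has the highest *Skp1a* and *Rbx1*, and the 6 AKT/NRAS libraries lie together at 3.81 to 3.92.

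In AKT/NRAS, *Skp2* and *Rbx1* were the members that passed, both higher after siRNA. *Skp2* had a log2 fold change of 0.38 (SE 0.08), the rank 492 of 496 counted from the lowest, and *Rbx1* one of 0.25 (SE 0.05), at rank 465. The panel as a whole had 17.3% of 496 genes past the threshold, 5.44% higher and 11.9% lower, with a median of -0.03. *Fbxw7* was higher in all 3 siRNA samples without passing (0.20, SE 0.06), and with it 3 of 6 members were free of overlap, beside 34.7% of all genes. *Skp1a* (-0.04, SE 0.03), *Cul1* (-0.08, SE 0.06) and *Vhl* (-0.09, SE 0.09) overlapped. *Skp2* and *Rbx1* passed in all 8 scalings, at 0.31 to 0.71 and 0.21 to 0.59. Both lost the call without siRNA replicate 3 and without SCR replicate 2. Neither passed with Benjamini-Yekutieli adjustment, the method that the paper selected. *Rbx1* also lost the call with 1 fit over the 4 groups, and *Skp2* with only genes above the floor in every sample.

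The response of a member in one line can be set against its response in the other with the interaction term over all 12 samples, the siRNA change in AKT Cre/NRAS minus that in AKT/NRAS. *Skp2* was the 1 member of 6 past the threshold, at -0.46 (SE 0.11), where 45.3% of 525 genes passed, 40.6% higher and 4.76% lower, with a median of 0.25. The terms of *Skp1a* (-0.50, SE 0.20) and *Rbx1* (-0.36, SE 0.16) had the same sign and did not pass. Nor did those of *Cul1* (0.10, SE 0.09), *Fbxw7* (0.12, SE 0.17) and *Vhl* (0.06, SE 0.15), with the opposite sign. The *Skp2* term passed in 5 of 7 scalings, with a range of -0.88 to 0.01, and in all 12 fits that left out 1 library. *Dusp4* itself fell less in AKT Cre/NRAS (-0.45, SE 0.12) than in AKT/NRAS (-1.73, SE 0.05). The part of this unequal silencing in the terms was not tested.

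The comparison of the lines asks what differs with AKT removed. Under siRNA, 4 of the 6 members passed. *Rbx1* was lower in AKT Cre/NRAS by the widest margin, with a log2 fold change of -0.97 (SE 0.08), and *Skp1a* (-0.63, SE 0.03) and *Fbxw7* (-0.42, SE 0.06) were lower too. *Cul1* was higher (0.24, SE 0.05). These 4 were free of overlap between the lines, beside 76.6% of all genes, and 74.5% of 522 genes passed, 36.6% higher and 37.9% lower. *Skp2* (0.14, SE 0.08) and *Vhl* (-0.14, SE 0.10) overlapped and did not pass. All 4 calls held in 8 of 8 scalings and in each of 6 fits without 1 library, and *Skp2* passed as well without AKT Cre/NRAS siRNA replicate 1. Markers of other cell types differed between the lines too. Of 3 biliary markers *Sox9* and *Spp1* lay above the floor in all 12 samples and *Prom1* in the 6 AKT Cre/NRAS samples alone, and of 4 fibroblast markers *Pdgfra* lay above it in all 12. The biliary marker *Spp1* was at 110575 ± 8080.2 normalized counts in AKT Cre/NRAS siRNA and 18598 ± 1449 in AKT/NRAS siRNA, and the fibroblast marker *Pdgfra* at 435 ± 28.7 and 41.9 ± 13.3 (SD, n = 3 each), and their part in the result was not tested.

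Under SCR, *Rbx1* (-0.61, SE 0.12) and *Fbxw7* (-0.54, SE 0.15) passed as lower in AKT Cre/NRAS and *Skp2* (0.61, SE 0.10) as higher. The panel had 76.9% of 515 genes past the threshold, 28.9% higher and 48% lower. *Vhl* was lower in all 3 AKT Cre/NRAS samples (-0.19, SE 0.11) and did not pass, which made 4 of 6 members free of overlap, beside 79.8% of all genes. *Skp1a* (-0.13, SE 0.17) and *Cul1* (0.14, SE 0.08) overlapped, and without AKT Cre/NRAS SCR replicate 3 both passed, as lower and higher. The 3 calls held in each fit without 1 library, whereas over 8 scalings *Rbx1* passed in 5 (-1.13 to -0.10), *Fbxw7* in 5 (-1.06 to -0.04) and *Skp2* in 6 (0.09 to 1.10). The 4 comparisons share samples, so the fold changes of one are not independent of those of the next, and those with AKT Cre/NRAS SCR hold the libraries whose *Rpl19* to *Polr2a* ratio stands apart, the part of which was not tested.

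**Figure D3:**
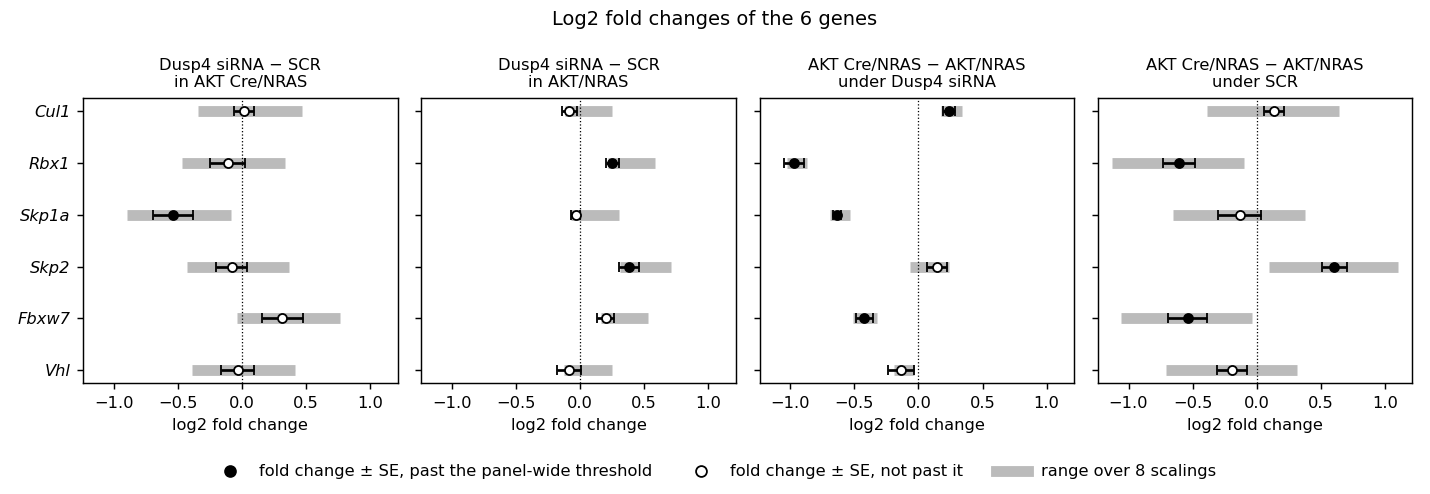
Log2 fold changes of the 6 genes (horizontal axes) with their SE in the 4 comparisons, as *Dusp4* siRNA minus SCR or AKT Cre/NRAS minus AKT/NRAS, with filled points for those past the panel-wide threshold and grey bars for the range over 8 scalings. The bars are short between the lines under siRNA, where *Rbx1* is at -0.97, and long wherever AKT Cre/NRAS SCR enters.

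Each other scaling except quantile normalization moves all genes of a sample above the floor by the same factor. The median log2 fold change of the panel ran from -0.10 to 0.67 over the scalings in the siRNA comparison of AKT Cre/NRAS and from -0.72 to 0.25 between the lines under SCR, against -0.06 to 0.30 in the siRNA comparison of AKT/NRAS and -0.04 to 0.09 between the lines under siRNA. A log2 ratio of 2 members within 1 sample, taken here from the deposited values, is not changed by such a factor. Of the 15 ratios among the 6 genes, 5 were free of overlap between siRNA and SCR in AKT Cre/NRAS, beside 49.7% of all 99235 pairs of genes above the floor in every sample, and these were the 5 that contain *Skp1a*. The log2 ratio of *Skp1a* to *Cul1* was 0.83, 0.90 and 0.88 after siRNA, against 1.05, 1.35 and 1.87 after SCR. All 5 had less *Skp1a* relative to the other gene after siRNA, by 0.43 to 0.86. They share *Skp1a*, so they are not independent of one another. In SCR the *Skp1a* to *Cul1* ratios ran in the order of the *Rpl19* to *Polr2a* log2 ratios of these libraries (5.48, 6.36 and 6.88), whose part was not tested. In AKT/NRAS 10 of 15 were free of overlap, beside 37.5% of all pairs, and the *Skp1a* to *Cul1* ratio, at 1.73, 1.69 and 1.81 after siRNA against 1.65, 1.69 and 1.74 after SCR, was not among them.

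Between the lines 12 of 15 ratios were free of overlap under siRNA and 10 of 15 under SCR, beside 82.7% and 82.2% of all pairs. The RING subunit stood low against the scaffold in AKT Cre/NRAS: the log2 ratio of *Cul1* to *Rbx1* was 2.34, 2.17 and 2.11 in AKT Cre/NRAS siRNA against 1.10, 1.07 and 0.84 in AKT/NRAS siRNA, a difference of 1.21. Under SCR it was 2.32, 2.16 and 1.76 in AKT Cre/NRAS against 1.38, 1.36 and 1.27 in AKT/NRAS, a difference of 0.74. *Rbx1* to *Skp2* was the ratio that set the lines apart under SCR by the most, at 2.22, 2.34 and 2.68 in AKT Cre/NRAS against 3.54, 3.72 and 3.65 in AKT/NRAS (-1.22). The 2 F-box genes moved against each other there. The log2 ratio of *Skp2* to *Fbxw7* was -0.71, 0.02 and -0.47 in AKT Cre/NRAS SCR against -1.45, -1.63 and -1.56 in AKT/NRAS SCR, a difference of 1.16, and it was 0.57 higher in AKT Cre/NRAS under siRNA.

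**Figure D4:**
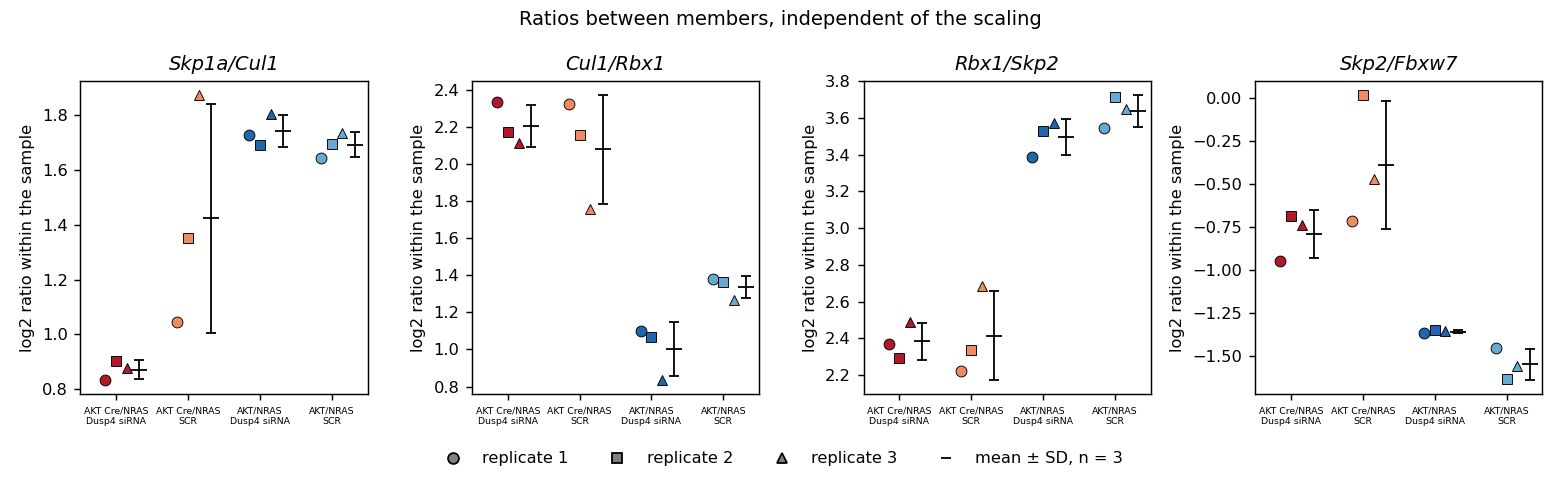
Log2 ratios of 2 members within each sample (vertical axes, which do not start at 0), by group, with circles, squares and triangles for replicates 1, 2 and 3 and the mean ± SD beside each group of 3. *Skp1a* to *Cul1* is lowest in AKT Cre/NRAS siRNA, *Cul1* to *Rbx1* is higher and *Rbx1* to *Skp2* lower in every AKT Cre/NRAS sample than in any AKT/NRAS sample, and the *Skp2* to *Fbxw7* ratio is higher there.

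The genes most like each member were ranked by Pearson's r of log2 normalized counts over the 12 samples, among 445 other genes above the floor in all of them. The samples share their group, their line and their library, so r describes a shared pattern and carries no test. *Skp1a* was most like the histone gene *H3f3a* (0.97), the DNA polymerase gene *Polb* (0.92) and *Gadd45g* (0.90), and *H3f3a* and *Polb* kept ranks 1 and 2 with the deposited values and with re-centring on the median. *Rbx1* was most like *Stmn1*, a microtubule regulator, and the DNA repair genes *Rpa3* and *Xpa*, with 0.97 each. For *Skp2* they were *Il1r1* (0.90), the interleukin 1 receptor gene, *Suv39h2* (0.88) and *Clcf1* (0.87). *Cul1* was nearest to *Nthl1* (0.92), *Chuk* and *Stag2* (0.89 each), and *Fbxw7* to *Kmt2c* (0.93), *Cbl* and *Hdac6* (0.92 each), of which *Nthl1*, *Stag2*, *Kmt2c* and *Cbl* held ranks 16 to 70 with the deposited values. *Vhl* had the weakest likeness, with 0.80 for *Sirt4*, 0.78 for *Ezh2* and 0.77 for *Rras2*. With the deposited values *Rpa3* held rank 24 for *Rbx1*, *Suv39h2* rank 16 for *Skp2* and *Sirt4* rank 31 for *Vhl*.

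The panel also holds genes whose proteins SCF ligases with Skp2 or Fbxw7 are known to mark, 14 in the list used. These are transcript levels, and the proteins were not analysed here. Between the lines 8 of 13 tested fell and 3 rose in AKT Cre/NRAS under siRNA, and likewise 8 fell and 3 rose under SCR, with medians of -0.64 and -0.70, beside -0.000534 and -0.22 over all genes, of which 37.9% and 48% fell. Of all genes 36.6% and 28.9% rose. Over the scalings 7 to 8 fell in both, while 3 to 5 rose under siRNA and 0 to 5 under SCR. *Jun* was at 193 ± 19.0 normalized counts in AKT Cre/NRAS siRNA and 1255 ± 89.7 in AKT/NRAS siRNA (SD, n = 3 each), a log2 fold change of -2.70 (limma adjusted p = 1.23e-07), and *Mycn* at 76.5 ± 8.89 and 607 ± 42.2 (-2.98, limma adjusted p = 1.71e-07). *Cdkn1b* ran the other way, at 4973 ± 50.0 in AKT Cre/NRAS siRNA and 3272 ± 78.6 in AKT/NRAS siRNA (0.60, limma adjusted p = 1.36e-06). *Cdkn1c*, of the same list, fell, at 52.0 ± 6.17 in AKT Cre/NRAS siRNA and 219.6 ± 9.55 in AKT/NRAS siRNA (-2.06, limma adjusted p = 1.28e-06). *Jun*, *Mycn*, *Cdkn1b* and *Cdkn1c* kept these directions and calls in all 8 scalings.

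After siRNA in AKT Cre/NRAS 6 of 12 tested genes of that list rose and 1 fell, beside 40.6% and 5.37% of all genes, with a median of 0.38 beside 0.23, and over the scalings 0 to 9 rose and 1 to 3 fell. The fall was that of *Ccne2*, a cyclin E gene, at 50.4 ± 2.21 normalized counts after siRNA and 106 ± 34.6 after SCR (-1.02, limma adjusted p = 0.0046), which passed in all 8 scalings. The rises included the receptor genes *Notch1* (0.83) and *Notch2* (0.78), each past the threshold in 7 of 8. In AKT/NRAS 1 of 13 rose and 3 fell, beside 5.44% and 11.9% of all genes, with a median of -0.10. There the deposited values gave 4 rises and no fall, and the median ran from -0.14 to 0.24 over the scalings. *Cdkn1a*, a cell cycle inhibitor gene, was at 4571 ± 155 after siRNA and 5850.0 ± 174 after SCR (-0.36, limma adjusted p = 0.00161), *Jun* fell as well (-0.35, limma adjusted p = 0.00916), and both lost the call with the deposited values. *Cdkn1b* fell by 0.14 (limma adjusted p = 0.0354) and passed in 6 of 8 scalings, with a range of -0.17 to 0.20. *Mycn* rose there (0.29, limma adjusted p = 0.019).

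Of 7 genes for substrates of SCF ligases with beta-TrCP, 6 were tested. After siRNA 4 rose and none fell in AKT Cre/NRAS, where 40.6% of all genes rose. Among them were *Cdc25a*, a cell cycle phosphatase gene (0.44, limma adjusted p = 0.0086), and *Ctnnb1*, the beta-catenin gene (0.43, limma adjusted p = 0.0183). Over the scalings 0 to 4 rose. None of the 6 passed in AKT/NRAS, where 17.3% of all genes passed and the scalings gave up to 4 rises or 2 falls. Between the lines *Nfkbia*, which encodes an inhibitor of NF-kappaB, was lower in AKT Cre/NRAS under siRNA (-1.02, limma adjusted p = 1.36e-06) and under SCR (-1.23, limma adjusted p = 8.34e-07), in all 8 scalings of each. The medians of the 6 after siRNA were 0.43 in AKT Cre/NRAS and -0.06 in AKT/NRAS, beside 0.23 and -0.03 over all genes.

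Other cullin ligase parts on the panel were *Fbxw11*, *Ddb2*, *Spop*, *Socs1*, *Socs2* and *Socs3*. *Socs1* and *Socs3*, substrate receptors that restrain cytokine signalling, rose after siRNA in AKT Cre/NRAS (0.65 and 0.54, limma adjusted p = 0.00738 and 0.00542), in 4 and 5 of 8 scalings. Of all genes 40.6% rose in that comparison. None of the 6 passed in AKT/NRAS, where 17.3% of all genes passed. With the deposited values 4 of the 6 rose there. *Socs2* was at 1763 ± 119 normalized counts in AKT Cre/NRAS siRNA and 252 ± 34.7 in AKT/NRAS siRNA (2.81, limma adjusted p = 2.25e-07), and at 1789 ± 114 and 305 ± 17.9 under SCR (2.55, limma adjusted p = 4.23e-08). Of these 6 genes 2 rose and 1 fell in AKT Cre/NRAS under siRNA, where 74.5% of all genes passed. Under SCR 3 rose and 3 fell, where 76.9% passed, and over the scalings 1 to 4 rose and 0 to 3 fell, with a median of -0.45 to 0.57. Their medians after siRNA were 0.18 in AKT Cre/NRAS and -0.01 in AKT/NRAS, beside 0.23 and -0.03 over all genes. Over the scalings up to 3 rose or up to 3 fell after siRNA in AKT Cre/NRAS.

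The list of Vhl partners and hypoxia-inducible genes held 8 genes on the panel, none of them a partner. After siRNA 2 of 7 tested rose and 2 fell in AKT Cre/NRAS, beside 40.6% and 5.37% of all genes, and over the scalings 0 to 2 rose and 0 to 5 fell. In AKT/NRAS none rose and 3 fell, beside 5.44% and 11.9%, and over the scalings 0 to 1 rose and 0 to 3 fell. *Bnip3*, a mitophagy gene, was among the falls in both lines, at -0.57 in AKT Cre/NRAS (limma adjusted p = 0.0216) and -0.34 in AKT/NRAS (limma adjusted p = 0.00816), in 4 and 7 of 8 scalings. *Vegfa*, the angiogenic growth factor gene, fell in AKT/NRAS by 0.22 (limma adjusted p = 0.00816), with a range of -0.25 to 0.12 over the scalings. The medians were -0.07 in AKT Cre/NRAS and -0.13 in AKT/NRAS, beside 0.23 and -0.03 over all genes, and ran from -0.42 to 0.38 and from -0.14 to 0.12 over the scalings. Between the lines 3 of 7 rose and 3 fell, both under siRNA and under SCR, with medians of -0.14 and -0.11, and the median under SCR ran from -0.63 to 0.39. Of all genes 36.6% rose and 37.9% fell under siRNA, and 28.9% rose and 48% fell under SCR, with medians of -0.000534 and -0.22. *Pgf*, the placental growth factor gene, was at 259 ± 23.9 normalized counts in AKT Cre/NRAS siRNA, and all 3 AKT/NRAS siRNA samples were at the floor of 27.1.

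The remaining ubiquitin genes were 14 other ligases, conjugating enzymes and ubiquitin itself, and 3 deubiquitinases. After siRNA 4 of 13 tested in the first list rose and 1 fell in AKT Cre/NRAS, and 1 of 12 rose and 1 fell in AKT/NRAS, where 45.9% and 17.3% of all genes passed. Over the scalings 0 to 7 rose and 0 to 3 fell in AKT Cre/NRAS, and 0 to 6 rose and 0 to 2 fell in AKT/NRAS. The first group included *Cbl*, a ligase for receptor tyrosine kinases (0.71, limma adjusted p = 0.00355). None of the 3 deubiquitinase genes *Bap1*, *Cyld* and *Tnfaip3* passed after siRNA in either line, although all 3 rose in AKT/NRAS with the deposited values and up to 1 rose or fell in AKT Cre/NRAS over the scalings. Between the lines 7 of 13 in the first list rose and 4 fell in AKT Cre/NRAS under siRNA, and 7 rose and 5 fell under SCR, with medians of 0.24 and 0.26. Of the deubiquitinases 2 rose and none fell in each, with medians of 0.42 and 0.32. Of all genes 36.6% rose and 37.9% fell under siRNA, and 28.9% rose and 48% fell under SCR, with medians of -0.000534 and -0.22. Under SCR the median of the ligases ran from -0.26 to 0.76 over the scalings, with 2 to 7 rises, and that of the deubiquitinases from -0.20 to 0.83, with 0 to 3. *Mdm2*, a ligase gene of the *Trp53* pathway, was among the rises under siRNA, at 533 ± 13.2 in AKT Cre/NRAS siRNA and 331 ± 6.09 in AKT/NRAS siRNA (0.69, limma adjusted p = 6.69e-06), in all 8 scalings.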

How the data were processed

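Total RNA of the 12 samples was hybridised to the nCounter Mouse PanCancer Pathways Panel of 770 gene probes, 6 positive and 8 negative controls. The deposited signal values are barcode counts that the authors multiplied by 1 positive-control factor per sample, with values up to 20 set to 20. Dividing by that factor gave whole counts within 0.1 for 100% of the values above 20 and up to 1000. Columns were matched to samples by the run number in the labels, and groups were taken from the labels. The replicates are called biological, but nothing says more of their source, so p values measure the spread between these samples, which may be partly technical.

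Values were rescaled to the 15 of 20 reference genes kept by pairwise variation over all 12 samples, with a common floor of 27.1, and log2(value + 1) was tested with limma 3.58.1 (lmFit and eBayes with trend) in R 4.3.3 for each comparison and for the interaction, with Benjamini-Hochberg adjustment over all genes tested and a threshold of 0.05. Fold changes are on the log2(value + 1) scale and understate those of low genes. Genes that no sample of a comparison measured above the floor were left out of its fit. Promoters and figures used Python 3.11.15 and matplotlib 3.10.9. The members, the gene lists and this scaling were chosen with earlier results of these data known. Named besides the members were *Dusp4*, *Rpl19*, *Polr2a*, the markers, the 3 genes most like each member, and in each list up to 4 genes with the smallest p among those called without overlap. Further list genes are named as list members only. Some markers are not reported here.

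Same-numbered samples of AKT Cre/NRAS siRNA and SCR deviated together from their group means (r = 0.22, 0.12 and 0.23 over 446 genes). Between the lines under siRNA r was 0.21, 0.03 and 0.16, and in the remaining comparisons -0.08 to 0.01. A fit with the replicate number as a block was therefore run for each comparison and the interaction. Other alternatives were 7 other scalings, other filters, Benjamini-Yekutieli adjustment, 1 fit over the 4 groups and leaving out each library. The fits were also run on simulated data with an even spread over genes and no difference between libraries. That run left out the scaling, so it cannot show how scaling or the spread of AKT Cre/NRAS SCR affects the results.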

Additional observations from a re-analysis of the deposited data

Results flagged for a closer look

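The response of *Skp2* to *Dusp4* siRNA differed between the lines by the interaction term of the limma fit over all 12 samples, at -0.46 on the log2 scale (SE 0.11). It was -0.08 (SE 0.12) in AKT Cre/NRAS, where the siRNA and SCR samples overlapped, and 0.38 (SE 0.08) in AKT/NRAS, where all 3 siRNA samples were above all 3 SCR samples. The gene belongs to a set chosen with fold changes known, and 45.3% of the 525 genes passed the same test, so the value is given as a description. *Skp2* came from 39 to 86 recovered counts per sample. The term ran from -0.88 to 0.01 over 7 scalings and passed in 5 of them. With Benjamini-Yekutieli adjustment it did not pass. The AKT Cre/NRAS SCR libraries, whose *Rpl19* to *Polr2a* ratio stands apart, enter the term, and their part was not tested. The silencing was unequal, with *Dusp4* log2 fold changes of -0.45 (SE 0.12) in AKT Cre/NRAS and -1.73 (SE 0.05) in AKT/NRAS. Its part in the *Skp2* difference was not tested.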

How the results depend on the processing

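The number of the 6 members past the threshold moved with the processing in 4 of the 5 comparisons, and the cause was not tested. A number counts as moved if it changed by more than 1.5 times, or to 0, so smaller changes are not all listed. For siRNA against SCR in AKT Cre/NRAS (1 member), it was 0 with the deposited values, with reference genes chosen within the comparison, without the filter and with Benjamini-Yekutieli adjustment. It was 3 with re-centring on the median and 2 with 1 fit over the 4 groups, and 0 to 2 without single libraries. In some settings that kept the count of 1 the gene changed from *Skp1a*. It was *Fbxw7*, higher, with 10 and with 5 reference genes, and *Cul1*, lower, with quantile normalization. In AKT/NRAS (2 members) it was 4 with the deposited values, 1 with genes above the floor in every sample and with 1 fit, 0 with Benjamini-Yekutieli adjustment, and 0 to 2 without single libraries. Between the lines under SCR (3 members) it was 5 with the 10 reference genes ranked first, and 3 to 5 without single libraries. It was 4 with 5 reference genes and with those chosen within the comparison, and 2 without the filter and with Benjamini-Yekutieli adjustment. With the deposited values and with re-centring on the median it was 2 as well, there *Cul1* and *Skp2*, both higher. Under siRNA (4 members) it stayed within 1.5 times in all 20 alternatives, with 4 to 5 without single libraries. For the interaction (1 member) it was 2 with the deposited values and with all 20 reference genes, 4 with re-centring on the median, and 3 with quantile normalization and with genes above the floor in every sample. It was 0 with 10 reference genes and with Benjamini-Yekutieli adjustment, and 1 to 3 without single libraries. With 5 reference genes the 1 member was *Cul1*, higher, in place of *Skp2*. The replicate block, which pairs same-numbered samples, gave 2 members for the interaction, *Rbx1* and *Skp2*, and 1, 2, 3 and 4 members in the 4 comparisons, so it changed no other count.

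Over the scalings the sign turned in at least 1 for 5 of 6 members after siRNA in AKT Cre/NRAS (all but *Skp1a*), for *Skp1a*, *Cul1* and *Vhl* after siRNA in AKT/NRAS, for the same 3 between the lines under SCR (-0.65 to 0.37, -0.39 to 0.64 and -0.71 to 0.31), for *Skp2* between the lines under siRNA and for 5 of 6 interaction terms (all but *Skp1a*). Turned values that passed the threshold, or replaced one that did, were those of *Cul1* after siRNA in AKT Cre/NRAS (-0.34 with re-centring on the median, -0.19 with quantile normalization), for *Skp1a* after siRNA in AKT/NRAS (0.30 with the deposited values, 0.062 with quantile normalization), and in the interaction for *Cul1* (-0.31 with re-centring on the median) and *Skp2* (0.012 with 5 reference genes). Across the panel, siRNA against SCR in AKT Cre/NRAS gave 204 genes higher and 27 lower, 32 and 136 with re-centring on the median, and 0 and 1 with the deposited values. In AKT/NRAS the split was 27 and 59, and 287 and 3 with the deposited values. Between the lines under SCR it was 149 and 247, and 202 and 99 with the deposited values. For the interaction it was 213 and 25, and 50 and 151 with re-centring on the median. Choosing reference genes within a comparison was not run for the interaction or for levels over all 12 samples, since it gives no value there. Depth limits *Skp2* most, with 39 counts in its lowest sample.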
